A study of Mus musculus with 6 samples.

Results

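Collagen genes were followed through 6 RNA sequencing libraries of cultured mouse cells. They were taken as all genes with a mouse symbol of the form Col, a number, the letter a and a number, which gave 44 of the 18305 genes in the files. By class these were 11 fibrillar collagens, 9 network collagens, 9 FACIT collagens (fibril-associated collagens with interrupted triple helices) and 15 others. All cells came from KM mice, and no genotype other than the strain is given in the labels. CiLC, the treated group, are embryonic fibroblasts at passages 3 to 5 that were exposed to small molecule compounds 24 h after being plated in 6-well plates; the labels do not name the compounds. LC are Leydig cell cultures from testis at passages 0 to 1. MEF are untreated embryonic fibroblasts at passages 3 to 5, from embryos of 12.5 or 13.5 days, the same kind of cells that CiLC were made from. Each group had 2 libraries. The sex and number of embryos or mice, whether they were pooled, and the age of the testis donors are not stated in the labels. The series asked how near CiLC come to Leydig cells in gene expression.

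Collagens are triple-helical proteins made of 3 chains, which can be copies of a single gene product or products of different genes. Fibrillar collagens pack into the ropes that carry tension in skin, bone, tendon and the stroma of organs. Network collagens form sheets, above all the type IV mesh of basement membranes, and FACIT collagens sit on the surface of fibrils. Fibroblasts are the main source of fibrillar collagen, while in the testis a type IV basement membrane surrounds the seminiferous tubules and the vessels between which Leydig cells lie.

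The starts of the network collagen genes described below are shown first, because these genes gave some of the widest differences between the groups and because type IV chains lie in head-to-head pairs. A RefSeq window from 250 bases before to 50 bases after a gene's start (build GRCm38.p6) was found for 35 of the 44 genes, with 38 windows in all. The windows printed are those of Col4a4 (chr1:82586800-82587099, minus strand), Col4a1 (chr8:11312777-11313076, minus strand), Col4a2 (chr8:11312555-11312854, plus strand), Col8a1 (chr16:57754688-57754987, minus strand) and Col8a2 (chr4:126286544-126286843, plus strand). Each reads 5′ to 3′ in the direction of its gene, and capitals mark matches to any of 4 motifs on either strand. The TATA box was searched as TATAAA, and the CCAAT box by the letters of its name. The GC box was searched as GGGCGG. The fourth motif was AAGGTCA, a half-site of the nuclear receptor NR5A1, which drives steroid-making genes.
Col4a4: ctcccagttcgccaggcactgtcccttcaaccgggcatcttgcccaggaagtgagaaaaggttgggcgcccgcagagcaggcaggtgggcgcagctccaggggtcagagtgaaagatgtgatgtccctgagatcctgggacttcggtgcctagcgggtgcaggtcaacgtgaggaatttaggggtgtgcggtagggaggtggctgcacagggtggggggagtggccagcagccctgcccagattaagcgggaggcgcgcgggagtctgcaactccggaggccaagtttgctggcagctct
Col4a1: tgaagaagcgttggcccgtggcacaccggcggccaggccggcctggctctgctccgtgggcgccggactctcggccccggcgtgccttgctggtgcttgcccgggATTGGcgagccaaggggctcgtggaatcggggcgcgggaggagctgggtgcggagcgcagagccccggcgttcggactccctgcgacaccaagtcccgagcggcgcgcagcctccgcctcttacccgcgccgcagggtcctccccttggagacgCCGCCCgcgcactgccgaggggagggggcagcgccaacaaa
Col4a2: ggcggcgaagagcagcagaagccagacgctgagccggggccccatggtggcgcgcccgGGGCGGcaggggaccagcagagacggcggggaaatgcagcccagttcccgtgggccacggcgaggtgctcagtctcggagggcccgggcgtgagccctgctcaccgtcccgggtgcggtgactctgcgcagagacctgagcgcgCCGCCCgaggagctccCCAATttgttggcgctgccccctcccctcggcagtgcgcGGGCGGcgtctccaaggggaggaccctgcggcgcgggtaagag
Col8a1: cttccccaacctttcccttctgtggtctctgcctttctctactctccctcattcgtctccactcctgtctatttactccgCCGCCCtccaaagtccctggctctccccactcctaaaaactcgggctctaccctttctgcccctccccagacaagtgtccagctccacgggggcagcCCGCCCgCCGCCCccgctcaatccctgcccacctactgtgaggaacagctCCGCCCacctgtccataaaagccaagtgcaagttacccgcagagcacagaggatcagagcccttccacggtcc
Col8a2: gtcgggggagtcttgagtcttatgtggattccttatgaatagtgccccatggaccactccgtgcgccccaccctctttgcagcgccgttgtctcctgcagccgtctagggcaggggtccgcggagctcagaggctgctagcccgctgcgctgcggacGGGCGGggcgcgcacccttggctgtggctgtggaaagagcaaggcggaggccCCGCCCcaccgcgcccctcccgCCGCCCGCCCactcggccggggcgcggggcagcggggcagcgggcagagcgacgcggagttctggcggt
The Col4a1 and Col4a2 windows overlap by 78 bases, and the Col4a2 start lies inside the Col4a1 window. The start of Col4a3 lies inside the Col4a4 window on the other strand. The strand setting of the counting is not given. It would matter only for reads from bases that both genes of a pair transcribe, and the extent of such bases was not examined. The windows of Col4a5 and Col4a6 do not overlap. The Col8a1 and Col8a2 windows each hold 4 GGGCGG matches, of which 2 in Col8a2 overlap, and the Col4a4 window holds none of the 4 motifs. The GC box letters occur in 23 of the 38 collagen windows and in 35.7% of all 32851 RefSeq windows. The CCAAT box letters occur in 13 collagen windows and 37.4% of all windows, the TATA box letters in 5 and 13.6%, and the NR5A1 half-site letters in 5 and 4.72%. These are letter matches in a fixed window and say nothing of binding.

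Total estimated reads were 18.4 to 18.9 M per library. The labelled cell types were checked by marker genes, with levels in CPM, the counts of a gene per 1000000 reads after scaling of the library sizes. The 8 Leydig cell markers summed to 144 to 148 CPM in CiLC, 1081 to 1109 CPM in LC and 7.55 to 9.40 CPM in MEF, with 4, 5 and 2 of them at 1 CPM or more in CiLC, LC and MEF. Of these, Cyp11a1, which starts steroid synthesis, averaged 12.3 CPM in CiLC, 705 CPM in LC and 1.33 CPM in MEF. Cyp17a1, which makes androgen precursors, was near 0 in LC at a mean of 0.0294 CPM, as was Lhcgr, the receptor for luteinizing hormone, at 0.146 CPM. In CiLC the sum was mostly Nr5a1 and Star, at means of 69.0 and 58.0 CPM, with Cyp17a1 at 0.0508 CPM and Lhcgr at 0 reads. Insl3 averaged 0.558 CPM in CiLC, 6.55 CPM in LC and 0.963 CPM in MEF. The 6 fibroblast markers were all above 1 CPM in all groups and summed to 4888 to 4940 CPM in CiLC, 4172 to 4255 CPM in LC and 2906 to 2964 CPM in MEF. Within that list Thy1 (816 CPM in CiLC, 5.72 CPM in LC and 395 CPM in MEF) and Lum (371, 5.72 and 91.2 CPM in CiLC, LC and MEF) were lowest in LC, Pdgfrb was highest in MEF (244, 238 and 745 CPM), and Pdgfra was highest in LC (943, 1787 and 302 CPM). Libraries of a group differed by more than counting noise, with a chi-square per degree of freedom over collagen genes of 5.48 in CiLC, 27.3 in LC and 17.2 in MEF, against 1.80, 2.94 and 2.77 over all genes. Nothing in the labels says that they came from separate cultures, and a p-value therefore speaks for the scatter among these libraries only, which could be technical in part or whole.

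Collagen genes took less of the RNA in CiLC and in LC than in MEF. Their share of all reads was 4.73% and 4.75% in CiLC, 3.72% and 3.88% in LC and 5.67% and 5.82% in MEF. The libraries of the 3 groups did not overlap, and both CiLC libraries lay between LC and MEF. Counting intervals (95%, Wilson) on these shares were at most 0.0211 percentage points wide and cover counting error only. With 2 libraries a group an exact two-sided permutation test cannot give a p below 0.333, so the shares were not tested. Fibrillar collagens took 3.37% and 3.40% of reads in CiLC, 2.53% and 2.60% in LC and 3.37% and 3.44% in MEF, so that CiLC and MEF overlapped while LC was lower. FACIT collagens took 0.672% and 0.651% in CiLC, 0.0931% and 0.103% in LC and 1.49% and 1.54% in MEF. Network collagens ran the other way in LC, with 0.323% and 0.324% in CiLC, 0.916% and 0.972% in LC and 0.438% and 0.447% in MEF. The remaining collagens took 0.373% and 0.369% in CiLC, 0.187% and 0.203% in LC and 0.381% and 0.396% in MEF. In bulk samples fewer cells of a type and less RNA per cell cannot be told apart.

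**Figure D1:**
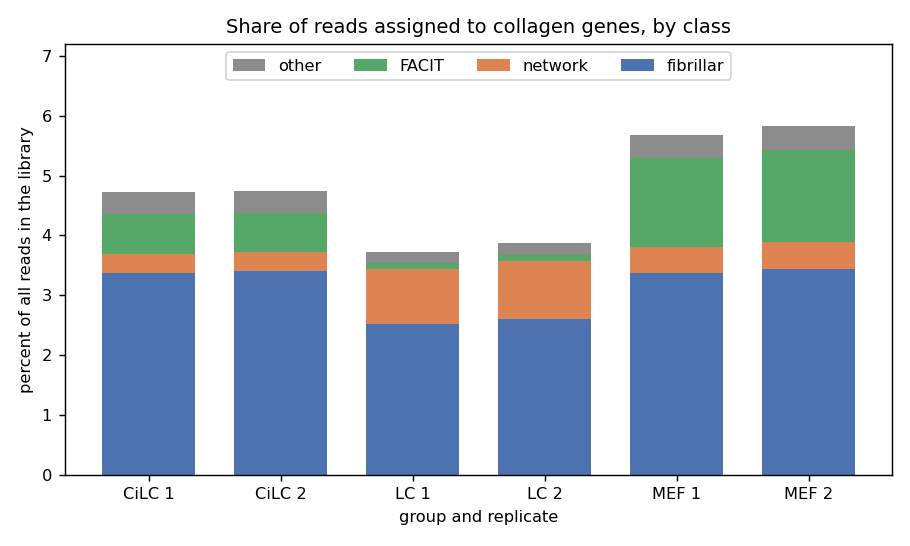
Percent of all reads in each library assigned to collagen genes, stacked by class, for the 2 libraries of each group. The FACIT part is largest in MEF (1.49% and 1.54%), the network part is largest in LC (0.916% and 0.972%), and the fibrillar part is alike in height in CiLC and MEF.

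A few genes made up most of this output, and they differed between groups. The 5 genes with the most reads held on average 80.5% of collagen reads in CiLC, 81.4% in LC and 79.4% in MEF. Col3a1 averaged 25.7% of collagen reads in CiLC, 20.6% in LC and 8.12% in MEF. Col12a1 averaged 13.3% in CiLC, 1.47% in LC and 25.8% in MEF. Because long transcripts collect more reads, genes were ranked by CPM per kilobase of a reference transcript (a single principal transcript per gene from GENCODE vM21). By this level CiLC led with Col3a1 at 2052 CPM per kilobase, Col1a2 at 1511 and Col1a1 at 1235. LC led with Col3a1 at 1528, Col1a1 at 1514 and Col1a2 at 1326 CPM per kilobase, followed by Col4a1 at 732 and Col4a2 at 654. MEF led with Col1a1 at 2254, Col1a2 at 1726 and Col12a1 at 1262 CPM per kilobase, and Col3a1 came next at 824. Type IV chains were thus among the 5 highest collagens per length in LC, where neither CiLC nor MEF had them.

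**Figure D2:**
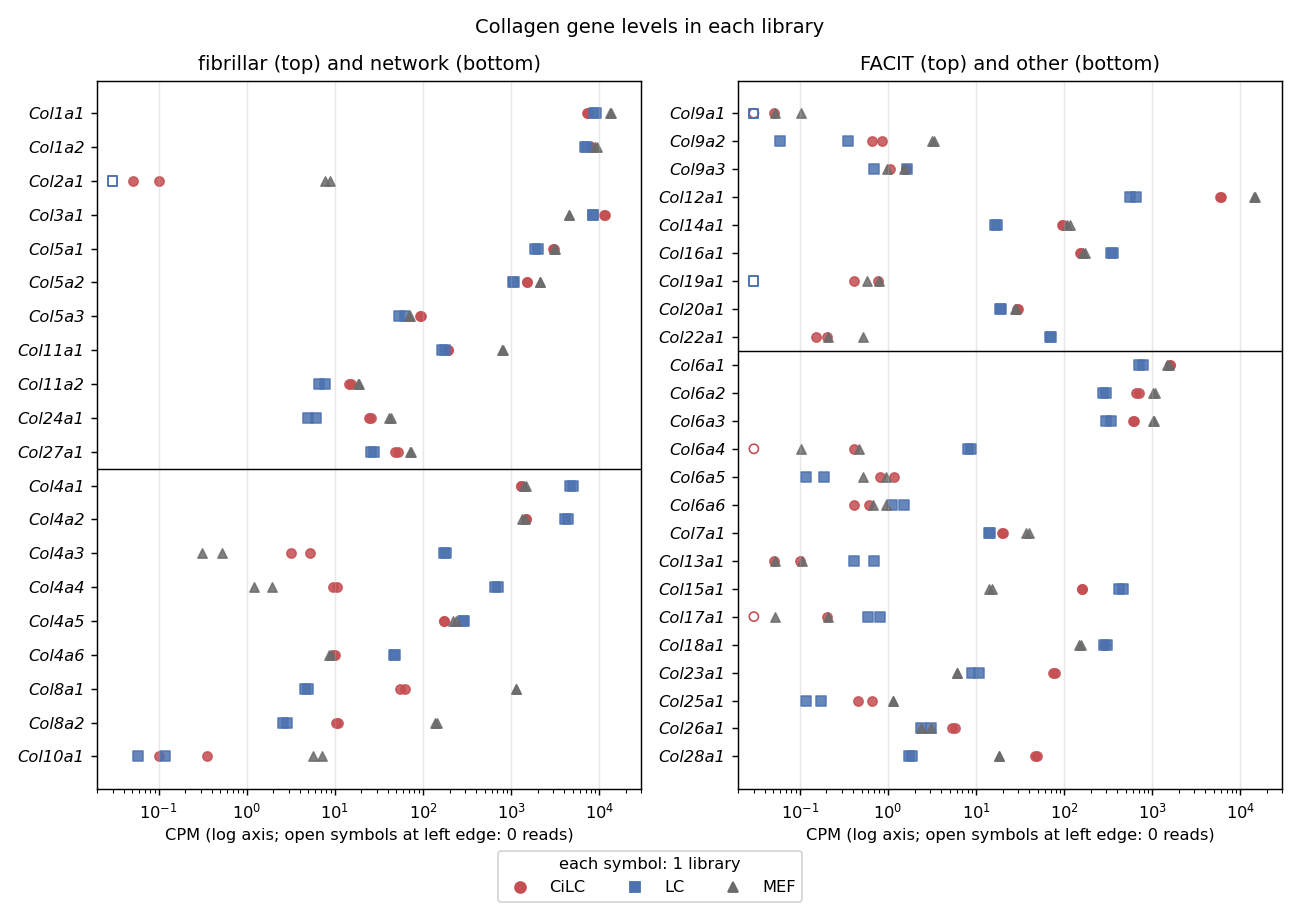
Level of every collagen gene in each library, as CPM on a log axis, with fibrillar and network genes on the left and FACIT and other genes on the right. Levels run from 0 reads (open symbols at the left edge) to 14832 CPM for Col12a1 in MEF, and most pairs of libraries of a group lie close together except below about 1 CPM.

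Of the 44 collagens 42 had enough reads to be tested; Col9a1 and Col13a1 did not. A gene was called changed when edgeR's quasi-likelihood test, fitted over all genes, gave an adjusted p of at most 0.05. All adjusted p-values below are from this test. In CiLC over MEF 9 collagens rose and 21 fell, which compares with 26.1% of all 14581 tested genes higher and 25.5% lower. Another 12 were not called, and 51.6% of all genes were called in either direction. The 42 collagens had a median log2 fold change of -0.28, against 0.0054 over all genes. In LC over MEF 14 rose and 25 fell, against 35.7% of all genes higher, 35% lower and 70.7% called either way, with a median of -0.62 against -0.0079 over all genes. In CiLC over LC 25 were higher and 13 lower, against 35% and 35.6% of all genes and 70.6% either way, with a median of 0.63 against 0.0046 over all genes. With Col2a1 left out and Col19a1 at its lower bound, both at 0 reads in LC, that last median was also 0.63. With library totals alone the collagens higher and lower were 11 and 19 in CiLC over MEF, 14 and 25 in LC over MEF and 26 and 12 in CiLC over LC. All tested genes then split into 4762 higher and 3032 lower in CiLC over MEF (3808 and 3721 with scaled sizes), 4125 and 6527 in LC over MEF (5203 and 5108), and 7315 and 3713 in CiLC over LC (5108 and 5187). The comparisons share libraries and are given side by side, not as support for each other.

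Many of these calls are of small differences, because the libraries of a group lay close together (common biological coefficient of variation 3.16%, the spread between libraries beyond counting). With a change of at least 2-fold asked as well, 7 collagens were higher and 8 lower in CiLC over MEF, against 6.23% and 5.98% of all genes, or 12.2% either way. In LC over MEF 10 were higher and 19 lower, against 14.3% and 12.9% (27.2% either way), and in CiLC over LC 15 were higher and 11 lower, against 11.4% and 14% (25.4% either way). By mean level, CiLC lay between LC and MEF for 25 of 42 collagens, against 44.4% of all tested genes. For 19 of those 25 the order from high to low was MEF, CiLC, LC, which held for 21.9% of all genes. CiLC had the highest mean of the 3 groups for 9 collagens, or 21.4%, against 28.5% of all genes; Col3a1, Col23a1 and Col28a1 were among them.

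**Figure D3:**
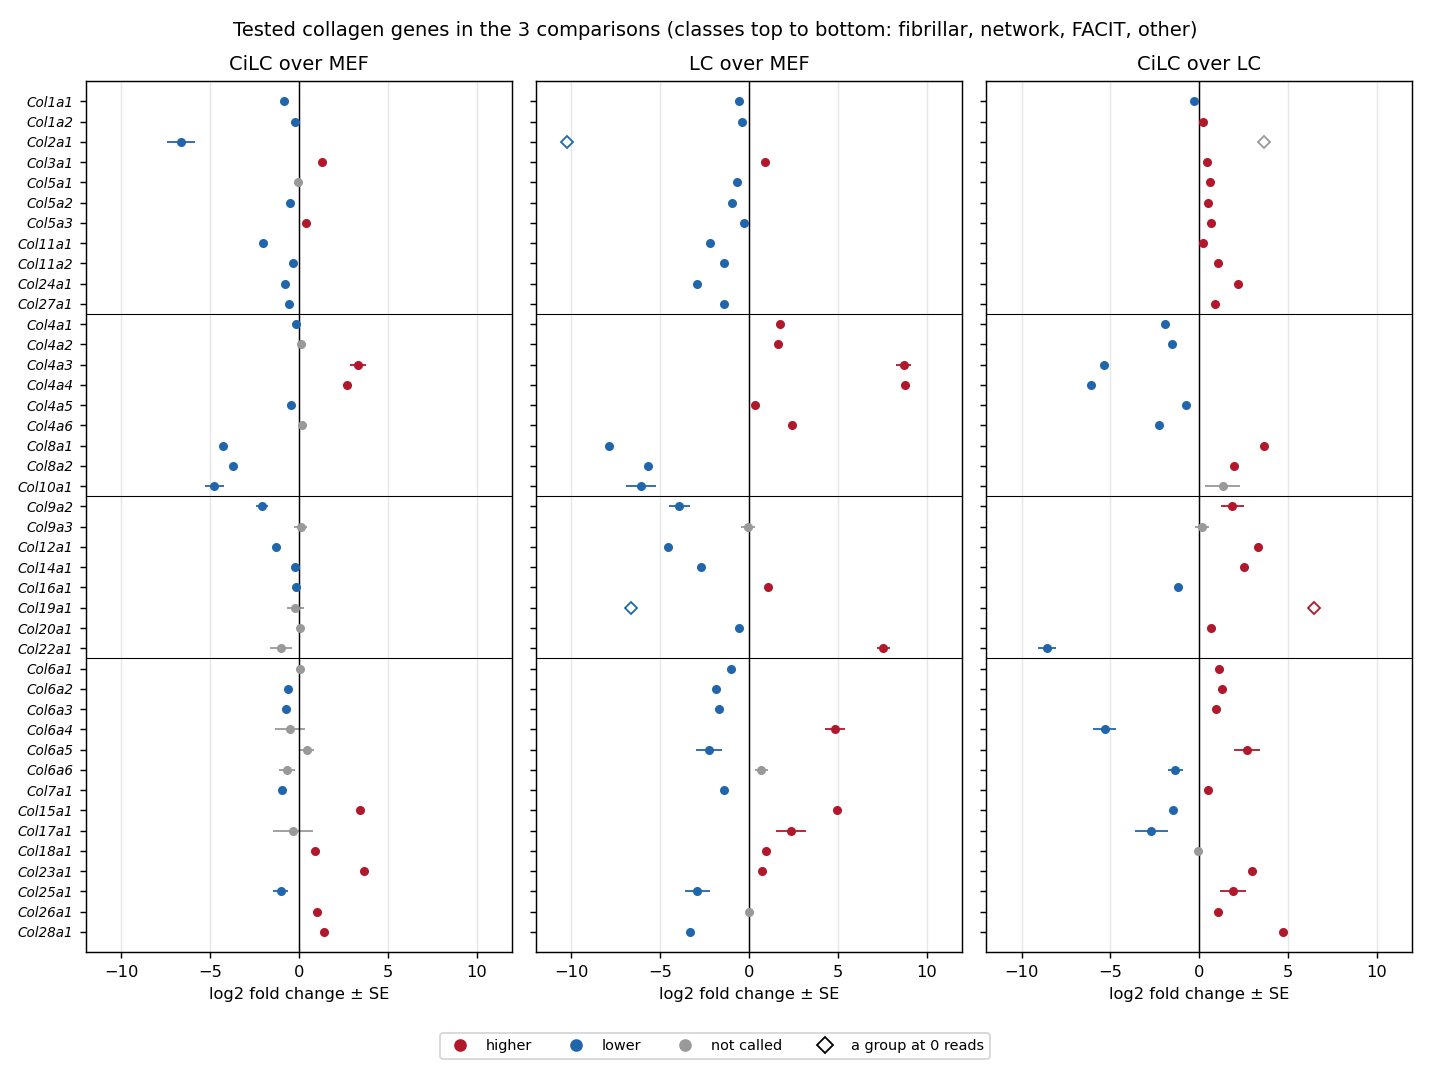
Log2 fold change ± SE of the 42 tested collagens in CiLC over MEF, LC over MEF and CiLC over LC, by class, with red for higher, blue for lower and grey for not called at an adjusted p of 0.05. Open diamonds mark genes with 0 reads in a group, whose fitted value depends on the prior count of 0.125 and is no bound. In LC over MEF 10 of 11 fibrillar genes are on the lower side, where 35% of all genes were called lower. Col1a1 among those 10 turns to the higher side, at 0.094, under quantile normalization.

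By class, the fibrillar collagens fell in 8 and rose in 2 of 11 genes in CiLC over MEF (median log2 fold change -0.50), and fell in 10 and rose in 1 in LC over MEF (median -0.99); under quantile normalization Col1a2 in CiLC over MEF and Col1a1 in LC over MEF were higher instead. Network collagens had 2 higher and 5 lower of 9 in CiLC over MEF (median -0.17), and 6 higher and 3 lower in LC over MEF (median 1.62). FACIT collagens had none higher and 4 lower of 8 tested in CiLC over MEF (median -0.22), and 2 higher and 5 lower in LC over MEF (median -1.64). The others had 5 higher and 4 lower of 14 tested in CiLC over MEF (median -0.13, or 0.074 without Col17a1, which has few reads), and 5 higher and 7 lower in LC over MEF (median -0.52). In CiLC over LC the class medians were 0.63 for fibrillar, -1.51 for network, 1.25 for FACIT and 0.98 for other collagens. In that order of classes, 9 of 11, 2 of 9, 5 of 8 and 9 of 14 genes were higher, and 1, 6, 2 and 4 lower. Of all tested genes 26.1% were higher and 25.5% lower in CiLC over MEF. The shares were 35.7% and 35% in LC over MEF, and 35% and 35.6% in CiLC over LC. Some class counts, such as the 5 of 14 other collagens higher in LC over MEF, were near these shares.

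Markers of several cell types differed between the groups as well. The 7 smooth muscle and pericyte markers summed to 159 to 162 CPM in CiLC, 985 to 992 CPM in LC and 1771 to 1863 CPM in MEF, with 6, 6 and 7 of them at 1 CPM or more in CiLC, LC and MEF. The 6 macrophage markers, all above 1 CPM in each group, summed to 2235 to 2239 CPM in CiLC, 907 to 924 CPM in LC and 3209 to 3265 CPM in MEF. The 8 epithelial and mesothelial markers summed to 95.2 to 102 CPM in CiLC, 8.44 to 8.75 CPM in LC and 28.3 to 29.1 CPM in MEF, led in CiLC by Msln and Upk3b at means of 37.4 and 34.4 CPM. Cdh1 of the same list made up most of the MEF sum, with means of 1.96 CPM in CiLC, 3.58 CPM in LC and 20.4 CPM in MEF. Schwann and neural markers summed to 8.26 to 9.70 CPM in CiLC, 74.1 to 75.6 CPM in LC and 66.7 to 71.5 CPM in MEF, and germ cell markers did not pass 4.17 CPM in any library. The part of these cell types in the collagen differences was not tested.

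Among the fibrillar collagens, type III rose in both CiLC and LC over MEF while type I fell, the type I genes each with 1 reversal under quantile normalization that is given with their values. Col3a1 (NCBI gene 12825), the single chain of type III collagen of skin, vessel walls and reticular fibres, had 11343 and 11496 CPM in CiLC, 8497 and 8502 CPM in LC and 4584 and 4581 CPM in MEF. The libraries of the groups did not overlap, and CiLC were highest. Col3a1 was 2.49-fold higher in CiLC than in MEF (log2 fold change 1.32 ± 0.046 SE, adjusted p = 7.06e-17), 1.85-fold higher in LC than in MEF (log2 fold change 0.89 ± 0.046 SE, adjusted p = 2.94e-14) and 1.34-fold higher in CiLC than in LC (log2 fold change 0.43 ± 0.045 SE, adjusted p = 1.76e-08).

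Col1a1 (NCBI gene 12842), the chain present in a pair in each type I molecule of bone, skin and tendon, had 7265 and 7388 CPM in CiLC, 8746 and 9210.0 CPM in LC and 13100.0 and 13634 CPM in MEF. MEF were highest and CiLC lowest, with no overlap. Col1a1 fell in CiLC over MEF (log2 fold change -0.87 ± 0.048 SE, adjusted p = 3.95e-13, but -0.15 under quantile normalization) and in LC over MEF (log2 fold change -0.57 ± 0.048 SE, adjusted p = 2.52e-10); the LC difference turned to 0.094 under quantile normalization (adjusted p = 0.0148, limma). It was lower in CiLC than in LC (log2 fold change -0.29 ± 0.048 SE, adjusted p = 1.02e-05), a call lost when library totals alone set the scale (log2 fold change -0.078, adjusted p = 0.136). Col1a2 (NCBI gene 12843), the other type I chain, had 8109 and 8048 CPM in CiLC, 6945 and 7233 CPM in LC and 9032 and 9434 CPM in MEF. MEF were highest and LC lowest, the order found for 19 of the 42 tested collagens. Col1a2 fell in CiLC over MEF (log2 fold change -0.19 ± 0.047 SE, adjusted p = 0.00154), but rose by 0.44 on the log2 scale under quantile normalization (adjusted p = 2.08e-08, limma). It also fell in LC over MEF (log2 fold change -0.38 ± 0.047 SE, adjusted p = 1.86e-07) and was higher in CiLC than in LC (log2 fold change 0.19 ± 0.047 SE, adjusted p = 0.00119, but 0.79 under quantile normalization).

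Set against transcript length, the balance of the chains differed. The level of Col1a1 per kilobase was 0.818 times that of Col1a2 in CiLC, 1.14 times in LC and 1.31 times in MEF. For Col3a1 over Col1a1 the same ratio was 1.66 in CiLC, 1.01 in LC and 0.366 in MEF. Thus Col3a1 exceeded Col1a1 per length in CiLC, the 2 were level in LC, and Col1a1 exceeded Col3a1 in MEF. These ratios rest on a single reference transcript per gene.

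Type V chains, which start type I fibrils and limit their width, differed by less than 1.5-fold between CiLC and MEF. Col5a1 (NCBI gene 12831) had 2995 and 3032 CPM in CiLC, 1863 and 2044 CPM in LC and 3064 and 3136 CPM in MEF. It was not called in CiLC over MEF, where the libraries lay close, and it fell in LC over MEF (log2 fold change -0.67 ± 0.049 SE, adjusted p = 2.7e-11). Col5a2 fell in both, with 1497 and 1517 CPM in CiLC, 1062 and 1089.9 CPM in LC and 2125 and 2144 CPM in MEF (log2 fold change -0.50 ± 0.044 SE, adjusted p = 1.51e-09 in CiLC over MEF, log2 fold change -0.99 ± 0.044 SE, adjusted p = 2.53e-15 in LC over MEF). Col5a3 was the chain that rose in CiLC, with 91.97 and 94.1 CPM in CiLC, 53.96 and 63.1 CPM in LC and 71.2 and 69.9 CPM in MEF. The order was CiLC, MEF, LC with no overlap: Col5a3 rose in CiLC over MEF (log2 fold change 0.40 ± 0.059 SE, adjusted p = 4.53e-06) and fell in LC over MEF (log2 fold change -0.27 ± 0.063 SE, adjusted p = 0.0006). All 3 type V genes were higher in CiLC than in LC, by log2 fold changes of 0.63, 0.49 and 0.67 for Col5a1, Col5a2 and Col5a3.

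Fibrillar chains known best from cartilage and bone were highest in MEF. Col11a1 (NCBI gene 12814), which with Col11a2 forms type XI collagen at the core of cartilage fibrils, had 193 and 195 CPM in CiLC, 163 and 179 CPM in LC and 779 and 802 CPM in MEF. CiLC and LC lay far below MEF, by 4.08-fold (log2 fold change -2.03 ± 0.049 SE, adjusted p = 9.84e-20) and by 4.63-fold (log2 fold change -2.21 ± 0.050 SE, adjusted p = 4.88e-21). CiLC exceeded LC slightly (log2 fold change 0.18, adjusted p = 0.00321), a call lost without LC library 1 (0.12, adjusted p = 0.0702). Col11a2 had 14.3 and 15.2 CPM in CiLC, 6.55 and 7.71 CPM in LC and 18.5 and 18.9 CPM in MEF, with a log2 fold change of -0.35 in CiLC over MEF (adjusted p = 0.00329 by edgeR, 0.0611 by the DESeq2 Wald test) and of -1.39 in LC over MEF (adjusted p = 7.51e-11). Col24a1, of developing bone, had 25.6 and 24.2 CPM in CiLC, 6.09 and 4.94 CPM in LC and 43.4 and 41.5 CPM in MEF. It fell to a level 7.68-fold below MEF in LC (log2 fold change -2.94 ± 0.11 SE, adjusted p = 5.35e-18), while in CiLC the fall was by 0.77 on the log2 scale (adjusted p = 2.97e-09). Col27a1, of cartilage, had 47.7 and 51.5 CPM in CiLC, 25.9 and 27.7 CPM in LC and 70.6 and 72.8 CPM in MEF, with log2 fold changes of -0.53 in CiLC over MEF and -1.42 in LC over MEF (adjusted p = 3.86e-08 and 2.37e-15). All 3 were higher in CiLC over LC, by 1.05 for Col11a2, 2.17 for Col24a1 and 0.89 for Col27a1 on the log2 scale (adjusted p = 2.05e-08, 1.08e-14 and 4.11e-11).

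Col2a1 (NCBI gene 12824), the main fibrillar collagen of cartilage, was detected in MEF and nearly absent elsewhere. It had 0.0509 and 0.101 CPM in CiLC, 0 reads in both LC libraries and 7.81 and 8.79 CPM in MEF. The 318 reads in MEF against 3 in CiLC give a ratio, scaled for library size, of 109 with a 95% counting interval of 37.0 to 531, and the gene was called lower in CiLC (adjusted p = 4.89e-13). Taking 3 reads as the limit that a count of 0 over the group allows, Col2a1 was at least 94.8-fold lower in LC than in MEF. That bound leaves out the counting error of the 318 reads in MEF. Across the 7 chains listed for cartilage, of which 6 were tested, none was higher and 5 were lower in CiLC over MEF, where 25.5% of all genes were lower, and likewise none and 5 in LC over MEF, where 35% were lower. Of 7 other markers of chondrocytes and osteoblasts found in the files, 2, 2 and 1 reached 1 CPM in CiLC, LC and MEF, and their summed level was 4.0 to 4.63 CPM in CiLC, 120.2 to 120.3 CPM in LC and 2.36 to 2.71 CPM in MEF. That sum was made in LC by Alpl and Acan, at means of 80.3 and 38.9 CPM, while Matn1 and Bglap were at 0 in LC. The part of such cells in the Col2a1 levels was not tested.

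All 6 type IV genes rose in LC over MEF and all 6 were lower in CiLC than in LC, where 35.7% and 35.6% of all genes were called in those directions. In CiLC over MEF 2 rose, 2 fell and 2 were not called, close to the 26.1% higher and 25.5% lower of all genes. Col4a1 (NCBI gene 12826) and Col4a2 encode the chains of the basement membrane network found in nearly all tissues. Col4a1 had 1288 and 1280.2 CPM in CiLC, 4698 and 4987 CPM in LC and 1419.5 and 1478 CPM in MEF. LC stood 3.34-fold above MEF (log2 fold change 1.74 ± 0.047 SE, adjusted p = 1.9e-19), and CiLC stood 3.77-fold below LC (log2 fold change -1.92 ± 0.047 SE, adjusted p = 4.09e-20). The small fall in CiLC over MEF (log2 fold change -0.17 ± 0.047 SE, adjusted p = 0.00365) was not called without CiLC library 2 (adjusted p = 0.0524), with library totals alone (0.0546) or under quantile normalization (0.427). Col4a2 (NCBI gene 12827) had 1470.4 and 1485 CPM in CiLC, 4053 and 4387 CPM in LC and 1319 and 1420.3 CPM in MEF. It rose 3.08-fold in LC over MEF (log2 fold change 1.62 ± 0.050 SE, adjusted p = 2.42e-18), was 2.86-fold lower in CiLC than in LC, and was not called in CiLC over MEF.

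Among collagens with reads in every library, the largest differences in LC over MEF were those of Col4a3 (NCBI gene 12828) and Col4a4 (NCBI gene 12829), which together with Col4a5 build the type IV network of the kidney's glomerular basement membrane and are mutated in Alport syndrome in humans. Col4a4 had 9.55 and 10.7 CPM in CiLC, 661 and 706 CPM in LC and 1.21 and 1.94 CPM in MEF. Both LC libraries were far above the others, and both CiLC libraries were above both MEF libraries. Col4a4 was 434-fold higher in LC than in MEF (log2 fold change 8.76 ± 0.20 SE, adjusted p = 1.05e-26), 6.44-fold higher in CiLC than in MEF (log2 fold change 2.69 ± 0.22 SE, adjusted p = 1.1e-11) and 67.4-fold lower in CiLC than in LC (log2 fold change -6.08 ± 0.090 SE, adjusted p = 7.76e-26). Col4a3 followed the same order, with 3.20 and 5.27 CPM in CiLC, 171 and 181 CPM in LC and 0.524 and 0.312 CPM in MEF. It was 415-fold higher in LC than in MEF (log2 fold change 8.70 ± 0.42 SE, adjusted p = 1.14e-23) and 41.5-fold lower in CiLC than in LC (log2 fold change -5.37 ± 0.14 SE, adjusted p = 7.78e-23). Its rise in CiLC over MEF (log2 fold change 3.32 ± 0.44 SE, adjusted p = 9.71e-09) rests on few reads. These are the paired genes whose starts share the Col4a4 window shown above, on opposite strands.

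Col4a5 (NCBI gene 12830) and Col4a6 (NCBI gene 94216), another neighbouring pair, were less apart. Col4a5 had 173 and 171 CPM in CiLC, 282 and 292 CPM in LC and 239 and 222 CPM in MEF: LC were highest and CiLC lowest. It fell in CiLC over MEF (log2 fold change -0.42 ± 0.049 SE, adjusted p = 1.42e-07) and rose in LC over MEF (log2 fold change 0.32 ± 0.048 SE, adjusted p = 3.01e-06), a call lost under quantile normalization (adjusted p = 0.0614, limma). Col4a6, a chain of smooth muscle and some epithelial basement membranes, had 10.1 and 9.58 CPM in CiLC, 46.3 and 47.8 CPM in LC and 8.96 and 8.59 CPM in MEF. It was 5.36-fold higher in LC than in MEF (log2 fold change 2.42 ± 0.089 SE, adjusted p = 9.94e-18) and 4.79-fold lower in CiLC than in LC (log2 fold change -2.26 ± 0.086 SE, adjusted p = 2.66e-17), and was not called in CiLC over MEF. Per kilobase Col4a4 exceeded Col4a3 by 2.12 times in CiLC, 3.29 times in LC and 3.61 times in MEF, where the libraries gave 1.95 and 5.26. Col4a1 and Col4a2 were nearly level, at ratios of 0.847 in CiLC, 1.12 in LC and 1.03 in MEF.

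Markers of other cells that make basement membrane differed between the groups too. The 6 Sertoli cell markers summed to 26.9 to 30.8 CPM in CiLC, 184 to 185 CPM in LC and 13.9 to 14.9 CPM in MEF, with 2, 4 and 2 of them at 1 CPM or more in CiLC, LC and MEF. In LC they were led by Wt1 at a mean of 123 CPM and Sox9 at 46.3 CPM. Dhh averaged 13.1 CPM there, while Amh was at 1.58, Fshr at 0.349 and Rhox5 at 0.0588 CPM. The 7 endothelial markers summed to 13.2 to 13.5 CPM in CiLC, 74.4 to 83.3 CPM in LC and 28.6 to 28.7 CPM in MEF, with 4, 4 and 3 of them at 1 CPM or more. The endothelial sum in LC was mostly Cdh5, at a mean of 60.5 CPM. Pecam1 was at 1.37 CPM in LC, while Kdr was highest in MEF (2.51 CPM in CiLC, 9.76 CPM in LC and 19.2 CPM in MEF) and Tek was highest in CiLC (1.78, 0.497 and 0.261 CPM in CiLC, LC and MEF). The part of such cells in the type IV levels was not tested.

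**Figure D4:**
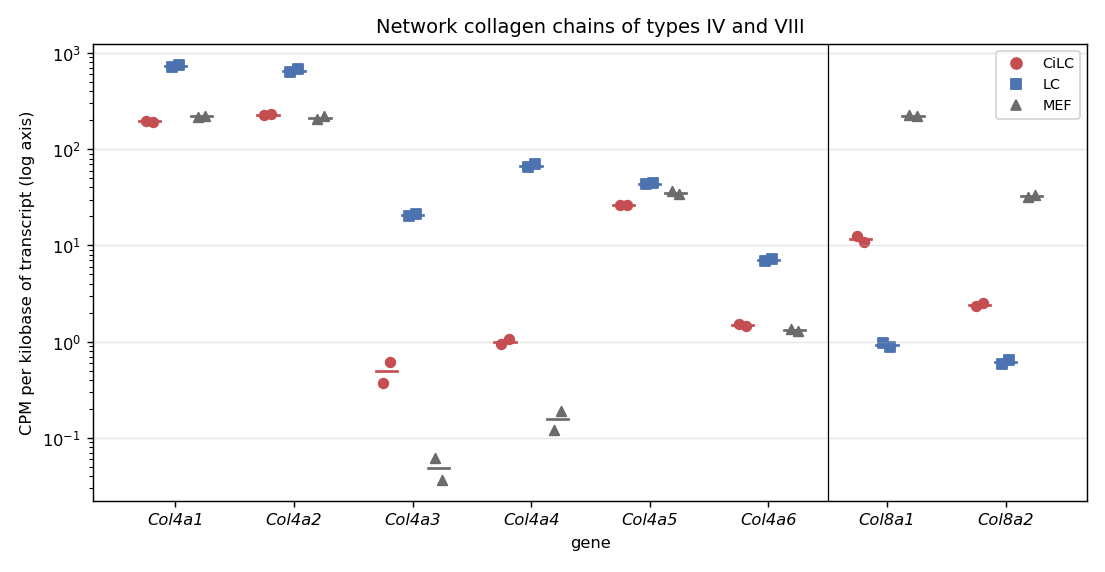
Level of the type IV and type VIII chains in each library, as CPM per kilobase of a reference transcript on a log axis, with a bar at the group mean. LC lie highest for the 6 type IV chains, with Col4a3 and Col4a4 the farthest from the other groups, while MEF lie highest for both type VIII chains and LC lowest.

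Type VIII and X collagens, short chains that form lattices, ran opposite to type IV. Col8a1 (NCBI gene 12837) and Col8a2 (NCBI gene 329941) encode the type VIII chains of vessel walls and of Descemet's membrane in the cornea. Col8a1 had 63.2 and 55.5 CPM in CiLC, 4.93 and 4.53 CPM in LC and 1151 and 1126 CPM in MEF. The 3 groups were widely separated, with CiLC between LC and MEF. It was 19.2-fold lower in CiLC than in MEF (log2 fold change -4.26 ± 0.056 SE, adjusted p = 4.05e-24), 240.3-fold lower in LC than in MEF (log2 fold change -7.91 ± 0.13 SE, adjusted p = 6.13e-27) and 12.5-fold higher in CiLC than in LC (log2 fold change 3.65 ± 0.13 SE, adjusted p = 2.85e-19). Col8a2 had 10.3 and 10.8 CPM in CiLC, 2.55 and 2.82 CPM in LC and 137 and 143 CPM in MEF, in the same order. It was 13.3-fold lower in CiLC than in MEF (log2 fold change -3.73 ± 0.078 SE, adjusted p = 4.07e-22) and 51.96-fold lower in LC than in MEF (log2 fold change -5.70 ± 0.15 SE, adjusted p = 4.23e-24). Per kilobase Col8a1 was above Col8a2 by 4.79 times in CiLC, 1.5 times in LC and 6.91 times in MEF. The smooth muscle and pericyte markers, whose sums are given above, summed highest in MEF and lowest in CiLC, with Tagln alone of the 7 highest in LC; their part in the type VIII levels was not tested.

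Col10a1 (NCBI gene 12813), the collagen of hypertrophic cartilage, was low throughout, with 0.102 and 0.355 CPM in CiLC, 0.0580 and 0.118 CPM in LC and 5.66 and 7.08 CPM in MEF. It was lower in CiLC than in MEF by 27.1-fold (log2 fold change -4.76 ± 0.52 SE, adjusted p = 4.79e-11), with log2 fold changes of -4.14 and -5.88 when CiLC library 1 or 2 was left out. LC had 3 reads against 244 in MEF, a scaled ratio of 72.7 with a 95% counting interval of 24.6 to 355 in favour of MEF (adjusted p = 1.13e-11). CiLC and LC were not called apart.

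FACIT collagens were dominated by Col12a1 (NCBI gene 12816), which coats type I fibrils in tendon, ligament and dense stroma. It had 6025 and 5810.2 CPM in CiLC, 562 and 652 CPM in LC and 14226 and 14832 CPM in MEF. MEF were highest, LC lowest and CiLC between, with wide gaps. Col12a1 was 2.46-fold lower in CiLC than in MEF (log2 fold change -1.30 ± 0.056 SE, adjusted p = 5.02e-15; -0.44 under quantile normalization), 23.95-fold lower in LC than in MEF (log2 fold change -4.58 ± 0.057 SE, adjusted p = 8.85e-25) and 9.76-fold higher in CiLC than in LC (log2 fold change 3.29 ± 0.057 SE, adjusted p = 1.89e-22). Col14a1, a related chain on the same fibrils, had 96.6 and 93.98 CPM in CiLC, 16.4 and 17.3 CPM in LC and 108 and 115 CPM in MEF. Here CiLC were close to MEF (log2 fold change -0.23 ± 0.050 SE, adjusted p = 0.000616), and LC were 6.61-fold lower than MEF (log2 fold change -2.73 ± 0.073 SE, adjusted p = 1.55e-20). CiLC exceeded LC by 5.65-fold (log2 fold change 2.50 ± 0.073 SE, adjusted p = 1.29e-19).

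Other FACIT chains rose in LC. Col22a1 (NCBI gene 69700), a collagen of tissue junctions such as that of muscle and tendon, had 0.203 and 0.152 CPM in CiLC, 68.97 and 71.7 CPM in LC and 0.210 and 0.520 CPM in MEF. Outside LC every library was below 1 CPM. The level in LC was 189-fold over MEF (log2 fold change 7.56 ± 0.37 SE, adjusted p = 3.01e-22); without MEF library 1 or 2 the log2 fold change was 7.05 or 8.34. CiLC were 381-fold lower than LC (log2 fold change -8.57 ± 0.52 SE, adjusted p = 2.77e-22) and were not called apart from MEF. Col16a1 (NCBI gene 107581), a chain found with both fibrils and microfibrils, had 149.6 and 156 CPM in CiLC, 341 and 362 CPM in LC and 164 and 173 CPM in MEF. It was 2.09-fold higher in LC than in MEF (log2 fold change 1.06 ± 0.049 SE, adjusted p = 3.59e-15) and 2.30-fold lower in CiLC than in LC (log2 fold change -1.20 ± 0.049 SE, adjusted p = 4.26e-16). Its fall in CiLC over MEF (log2 fold change -0.14 ± 0.051 SE, adjusted p = 0.0263) was not called without CiLC library 1 (adjusted p = 0.211), CiLC library 2 (0.0517) or MEF library 2 (0.203).

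The remaining FACIT genes were low. Col20a1 had 29.7 and 29.1 CPM in CiLC, 18.95 and 18.8 CPM in LC and 27.6 and 28.05 CPM in MEF, not called in CiLC over MEF and lower in LC than in MEF (log2 fold change -0.56 ± 0.075 SE, adjusted p = 5.74e-07). It was higher in CiLC than in LC (log2 fold change 0.64 ± 0.075 SE, adjusted p = 6.31e-08). Col9a2, a chain of the type IX collagen that decorates cartilage fibrils, had 0.865 and 0.659 CPM in CiLC, 0.348 and 0.0588 CPM in LC and 3.30 and 3.12 CPM in MEF. It fell in CiLC over MEF (log2 fold change -2.07 ± 0.35 SE, adjusted p = 9.87e-06) and in LC over MEF (log2 fold change -3.93 ± 0.60 SE, adjusted p = 3.04e-08), where the log2 fold change was -5.62 without LC library 1 and -3.18 without LC library 2. CiLC over LC gave log2 fold change 1.86 ± 0.64 SE, adjusted p = 0.00606, or 3.55 without LC library 1, and was not called without LC library 2 (1.12, adjusted p = 0.105). Col9a3 had 1.60 and 1.06 CPM in CiLC, 1.65 and 0.691 CPM in LC and 0.974 and 1.501 CPM in MEF and was called in no comparison. Col9a1, with 0.0509 and 0 CPM in CiLC, 0 and 0 CPM in LC and 0.0524 and 0.104 CPM in MEF, was at or under 3 reads in every group. Col19a1 had 0.407 and 0.760 CPM in CiLC, 0 and 0 CPM in LC and 0.786 and 0.572 CPM in MEF. With 3 reads taken as the limit for the 0 reads in LC, its 26 reads in MEF put LC 7.75-fold or more below MEF (adjusted p = 7.25e-05). Its 23 reads in CiLC put CiLC 6.67-fold or more above LC (adjusted p = 0.000158). These bounds leave out the counting error of the 26 and 23 reads.

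Type VI collagen, which forms beaded filaments around cells, was lower in LC. Col6a1 (NCBI gene 12833) had 1576 and 1591 CPM in CiLC, 709.6 and 774 CPM in LC and 1470.3 and 1539 CPM in MEF. CiLC were highest but not called apart from MEF, and LC fell by 1.02 on the log2 scale relative to MEF (adjusted p = 8.65e-15). Col6a2 had 709 and 658 CPM in CiLC, 277 and 297 CPM in LC and 1011 and 1063 CPM in MEF, with log2 fold change -0.60 ± 0.050 SE, adjusted p = 5.03e-10 in CiLC over MEF and log2 fold change -1.85 ± 0.051 SE, adjusted p = 2.56e-19 in LC over MEF. Col6a3 had 625 and 607 CPM in CiLC, 299 and 343 CPM in LC and 1019 and 1057 CPM in MEF, with log2 fold change -0.75 ± 0.053 SE, adjusted p = 2.75e-11 in CiLC over MEF and log2 fold change -1.69 ± 0.054 SE, adjusted p = 3.8e-18 in LC over MEF. In CiLC the main chains thus differed from each other: Col6a2 and Col6a3 fell and Col6a1 was not called. All 3 were higher in CiLC than in LC, by 1.09, 1.25 and 0.94 on the log2 scale for Col6a1, Col6a2 and Col6a3 (adjusted p at most 3.12e-13). Per kilobase Col6a1 was 2.24 times Col6a2 in CiLC, 2.49 times in LC and 1.40 times in MEF.

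The alternative type VI chains, which can take the place of the Col6a3 product, were low, and Col6a5 and Col6a6 stayed below 2 CPM in every library. Col6a4 had 8 and 0 reads in CiLC, 149 and 139 in LC and 9 and 2 in MEF. It rose in LC over MEF (log2 fold change 4.84 ± 0.57 SE, adjusted p = 6.7e-11), and the log2 fold change was 6.24 or 4.13 without MEF library 1 or 2. CiLC were lower than LC (log2 fold change -5.33 ± 0.66 SE, adjusted p = 3.55e-11), with -4.34 without CiLC library 2. Without CiLC library 1 the fitted value was -10.27, but 0 reads were then left in CiLC. That value depends on the prior count and is no bound. Col6a5 had 1.17 and 0.811 CPM in CiLC, 0.116 and 0.187 CPM in LC and 0.524 and 0.937 CPM in MEF; it fell in LC over MEF (log2 fold change -2.27, adjusted p = 0.00295), a call lost without MEF library 2 (0.0588), and was higher in CiLC than in LC (log2 fold change 2.71 ± 0.73 SE, adjusted p = 0.000335). Col6a6 had 0.407 and 0.608 CPM in CiLC, 1.10 and 1.52 CPM in LC and 0.681 and 0.937 CPM in MEF and was called in CiLC over LC alone (log2 fold change -1.36, adjusted p = 0.00552), which was lost without CiLC library 1 (0.0707) or LC library 2 (0.0808).

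The multiplexins, basement membrane collagens whose C-terminal fragments include endostatin, rose in both CiLC and LC over MEF. Col15a1 (NCBI gene 12819) had 160.3 and 158 CPM in CiLC, 418 and 462 CPM in LC and 13.8 and 15.04 CPM in MEF. LC were highest, CiLC next and MEF far below. It was 11.03-fold higher in CiLC than in MEF (log2 fold change 3.46 ± 0.081 SE, adjusted p = 4.78e-21), 30.4-fold higher in LC than in MEF (log2 fold change 4.93 ± 0.079 SE, adjusted p = 6.15e-25) and 2.76-fold lower in CiLC than in LC (log2 fold change -1.47 ± 0.051 SE, adjusted p = 1.92e-17). Col18a1 (NCBI gene 12822) had 281 and 287 CPM in CiLC, 283 and 304 CPM in LC and 146 and 155 CPM in MEF. CiLC and LC overlapped and were not called apart, and both exceeded MEF, by 1.89-fold in CiLC (log2 fold change 0.92 ± 0.050 SE, adjusted p = 2.79e-13) and 1.95-fold in LC (log2 fold change 0.97 ± 0.050 SE, adjusted p = 3.76e-14).

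Some collagens were highest in CiLC. Col23a1 (NCBI gene 237759), a transmembrane collagen of the cell surface, had 75.3 and 79.2 CPM in CiLC, 10.7 and 8.95 CPM in LC and 6.04 and 6.04 CPM in MEF. Both CiLC libraries were several times above every other library. Col23a1 was 12.8-fold higher in CiLC than in MEF (log2 fold change 3.68 ± 0.10 SE, adjusted p = 2.28e-20), 7.87-fold higher in CiLC than in LC (log2 fold change 2.98 ± 0.090 SE, adjusted p = 7.66e-20) and 1.63-fold higher in LC than in MEF (log2 fold change 0.70 ± 0.12 SE, adjusted p = 2.63e-05). Col28a1 (NCBI gene 213945), a collagen related to type VI and known from peripheral nerve, had 49.3 and 46.99 CPM in CiLC, 1.74 and 1.88 CPM in LC and 17.97 and 18.4 CPM in MEF. CiLC were highest and LC lowest: it rose 2.65-fold in CiLC over MEF (log2 fold change 1.41 ± 0.072 SE, adjusted p = 4.75e-14), fell 10.004-fold in LC over MEF (log2 fold change -3.32 ± 0.18 SE, adjusted p = 3.91e-16) and was 26.5-fold higher in CiLC than in LC (log2 fold change 4.73 ± 0.17 SE, adjusted p = 1.49e-20). Col26a1, known from developing testis and ovary, had 5.30 and 5.80 CPM in CiLC, 2.40 and 3.07 CPM in LC and 3.10 and 2.40 CPM in MEF. It was higher in CiLC than in MEF (log2 fold change 1.01 ± 0.19 SE, adjusted p = 8.77e-05) and than in LC (log2 fold change 1.03 ± 0.20 SE, adjusted p = 5.86e-05), while LC and MEF overlapped and were not called apart.

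Col7a1, the anchoring fibril collagen under epithelia, had 19.4 and 20.4 CPM in CiLC, 13.9 and 14.5 CPM in LC and 36.5 and 40.01 CPM in MEF. It fell in CiLC over MEF (log2 fold change -0.94 ± 0.074 SE, adjusted p = 1.72e-10) and in LC over MEF (log2 fold change -1.43 ± 0.083 SE, adjusted p = 1.51e-13), and was higher in CiLC than in LC (log2 fold change 0.49 ± 0.089 SE, adjusted p = 3.75e-05). The transmembrane collagens other than Col23a1 were low. Col25a1 had 0.661 and 0.456 CPM in CiLC, 0.174 and 0.118 CPM in LC and 1.15 and 1.14 CPM in MEF. It was called lower in CiLC than in MEF (log2 fold change -1.03, adjusted p = 0.0355), but not without CiLC library 1 (0.0665) or 2 (0.226), MEF library 1 (0.119) or 2 (0.121) or LC library 2 (0.0503). It fell in LC over MEF (log2 fold change -2.92 ± 0.69 SE, adjusted p = 6.14e-05) and was called higher in CiLC than in LC (log2 fold change 1.89, adjusted p = 0.0114), but not without CiLC library 1 (0.0953) or LC library 2 (0.0815). Col17a1, of hemidesmosomes, had 0 and 0.203 CPM in CiLC, 0.811 and 0.588 CPM in LC and 0.0524 and 0.208 CPM in MEF; it was called higher in LC than in MEF (log2 fold change 2.37, adjusted p = 0.00638), but not without LC library 1 (0.0839) or MEF library 1 (1.71, adjusted p = 0.0921), and gave 3.58 without MEF library 2. Its log2 fold change in CiLC over LC was -2.71 (adjusted p = 0.00327), and the call was lost without CiLC library 1 (-1.75) or LC library 1 (-2.46). Without CiLC library 2 the fitted value was -6.70, but 0 reads were then left in CiLC, so it depends on the prior count. Col13a1 was not tested; its 19 reads in LC against 3 in MEF give a scaled ratio of 7.08, with a 95% counting interval of 2.09 to 37.4, and its 3 reads in CiLC put CiLC below LC by 7.28 (2.14 to 38.4).

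The genes that handle collagen were described from lists of their own. Of 19 tested genes for folding and modification, 8 rose and 5 fell in CiLC over MEF, where 26.1% of all tested genes were higher and 25.5% lower (median log2 fold change 0.022). In LC over MEF 16 rose and 2 fell, against 35.7% and 35% of all genes (median 0.41), and in CiLC over LC 2 were higher and 15 lower, against 35% and 35.6% (median -0.38). The medians over all genes were given above. The counts depended on scaling: with library totals alone the counts were 13 higher and 2 lower in LC over MEF, and 4 higher and 10 lower in CiLC over LC. Plod2, which hydroxylates lysines of the chain ends for cross-linking, had 298 and 289 CPM in CiLC, 827 and 827 CPM in LC and 237 and 224 CPM in MEF. It rose in CiLC over MEF (log2 fold change 0.35 ± 0.047 SE, adjusted p = 1.5e-06) and in LC over MEF (log2 fold change 1.84 ± 0.046 SE, adjusted p = 3.93e-20). P4ha1, a catalytic subunit of prolyl 4-hydroxylase, had 268 and 269.8 CPM in CiLC, 578 and 557 CPM in LC and 242 and 228 CPM in MEF. It rose in CiLC over MEF (log2 fold change 0.20 ± 0.048 SE, adjusted p = 0.00143) and in LC over MEF (log2 fold change 1.27 ± 0.047 SE, adjusted p = 4.82e-17). P4ha3, another such subunit, fell in both, with 15.3 and 18.4 CPM in CiLC, 8.39 and 8.41 CPM in LC and 55.2 and 52.6 CPM in MEF (log2 fold change -1.67 ± 0.079 SE, adjusted p = 8.19e-15 in CiLC over MEF). The collagen chaperone Serpinh1 was called higher in LC than in MEF at a log2 fold change of 0.11 (adjusted p = 0.0301), which turned to -0.19 under quantile normalization (adjusted p = 0.000494, limma).

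Of 12 tested genes for procollagen processing and cross-linking, 4 rose and 8 fell in CiLC over MEF (26.1% and 25.5% of all genes; median -0.40), and 7 rose and 5 fell in LC over MEF (35.7% and 35% of all genes; median 0.72). The split in CiLC over LC was 4 higher and 8 lower (35% and 35.6% of all genes, median -0.82). With DESeq2 size factors 3 rose and 8 fell in CiLC over MEF, and the same counts held under quantile normalization. The rise of Pcolce2 in CiLC over MEF rested on few reads, with 11 and 7 in CiLC and 2 and 3 in MEF. Lox, the lysyl oxidase that cross-links fibrils, had 2428 and 2307 CPM in CiLC, 1909 and 1949.7 CPM in LC and 3668 and 3356 CPM in MEF. MEF were highest, and Lox fell in CiLC over MEF (log2 fold change -0.57 ± 0.050 SE, adjusted p = 1.37e-09) and in LC over MEF (log2 fold change -0.86 ± 0.050 SE, adjusted p = 3.03e-13). Adamts2, which removes the N-propeptide of procollagen, had 346 and 333 CPM in CiLC, 813 and 832 CPM in LC and 139 and 149.7 CPM in MEF. It rose in CiLC over MEF (log2 fold change 1.23 ± 0.050 SE, adjusted p = 1.06e-15) and in LC over MEF (log2 fold change 2.51 ± 0.049 SE, adjusted p = 4.17e-22).

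Degradation genes had the highest median of the 5 lists in CiLC over MEF: 5 of 6 rose and 1 fell, against 26.1% and 25.5% of all genes (median 2.37). In LC over MEF 2 rose and 4 fell, against 35.7% and 35% of all genes (median -0.60), and in CiLC over LC 5 were higher and 1 lower, against 35% and 35.6% (median 1.71). Mmp9, a gelatinase that cleaves denatured collagen and type IV, had 364 and 381 CPM in CiLC, 38.3 and 40.3 CPM in LC and 0.996 and 1.93 CPM in MEF. It rose in CiLC over MEF (log2 fold change 7.99 ± 0.21 SE, adjusted p = 1.83e-24) and in LC over MEF (log2 fold change 4.74 ± 0.21 SE, adjusted p = 6.48e-19), and was higher in CiLC than in LC (log2 fold change 3.24 ± 0.064 SE, adjusted p = 2.04e-22). Macrophages are known to make Mmp9 too. Of the 6 macrophage markers, Adgre1 (means of 367 CPM in CiLC, 184 CPM in LC and 166 CPM in MEF) and Ptprc (198, 68.3 and 161 CPM) were highest in CiLC, and the other 4, led by Csf1r (927, 339.9 and 1289.5 CPM), were highest in MEF; their part in the Mmp9 level was not tested. Mmp13, an interstitial collagenase, had 116 and 113 CPM in CiLC, 7.94 and 6.65 CPM in LC and 10.8 and 10.5 CPM in MEF, and rose in CiLC over MEF (log2 fold change 3.43 ± 0.081 SE, adjusted p = 3.36e-21).

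Among 9 tested collagen receptors none rose and 6 fell in CiLC over MEF, against 26.1% and 25.5% of all genes (median -0.41), and 3 rose and 6 fell in LC over MEF, against 35.7% and 35% (median -0.99). In CiLC over LC 5 were higher and 4 lower, against 35% and 35.6% (median 0.45). Itga11, a chain of an integrin that binds fibrillar collagen, had 102 and 99.5 CPM in CiLC, 31.4 and 30.8 CPM in LC and 726 and 735 CPM in MEF. It fell in CiLC over MEF (log2 fold change -2.86 ± 0.047 SE, adjusted p = 1.51e-22) and in LC over MEF (log2 fold change -4.55 ± 0.058 SE, adjusted p = 6.19e-26), the same order of groups as for Col12a1. Of 7 tested cartilage and tendon regulators none rose and 4 fell in CiLC over MEF, against 26.1% and 25.5% of all genes (median -0.38). Near the shares of all genes were the 2 that rose and 3 that fell in LC over MEF (35.7% and 35%; median -0.40) and the 2 higher and 3 lower in CiLC over LC (35% and 35.6%), with a median of -0.057 that was 0.16 with library totals alone. Sox9, which drives Col2a1 in cartilage and also marks Sertoli cells, had 10.2 and 9.28 CPM in CiLC, 45.1 and 47.5 CPM in LC and 8.10 and 8.53 CPM in MEF. It was not called in CiLC over MEF and rose in LC over MEF (log2 fold change 2.47 ± 0.094 SE, adjusted p = 1.48e-17).

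**Figure D5:**
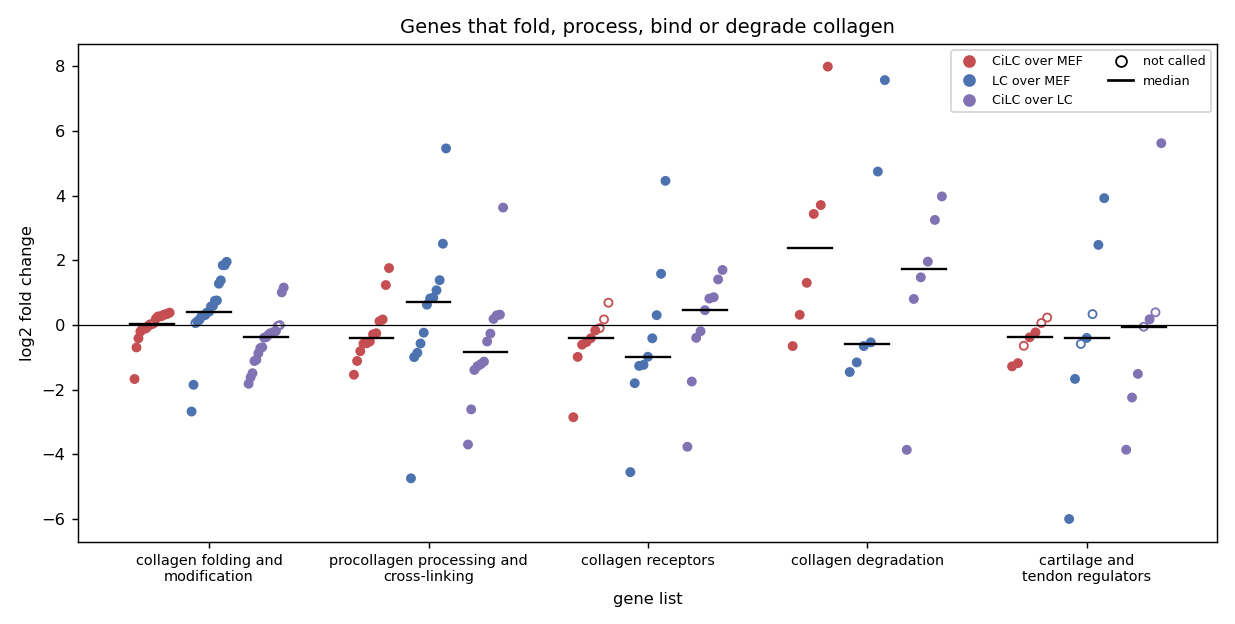
Log2 fold change of each tested gene in 5 lists related to collagen, for CiLC over MEF, LC over MEF and CiLC over LC from left to right, with filled points for called genes, open points for genes not called and a bar at each median. The degradation list has the highest median in CiLC over MEF (2.37); the median of the cartilage and tendon regulators in CiLC over LC is -0.057 and turns to 0.16 with library totals alone, and for Serpinh1, in the folding list, the sign in LC over MEF changes under quantile normalization.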

How the data were processed

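Total RNA of cultured cells was sequenced on a BGISEQ-500 in 6 libraries, with 2 libraries each of CiLC, LC and MEF. The authors deposited estimated counts of reads per gene and library, keyed by NCBI gene numbers; per the submitters' processing notes reads were aligned with HISAT to mm9. Not given in the sources used here are the version of HISAT, how reads were counted, with which annotation, and whether strand was used. From 32.4% to 32.8% of values per library were not whole, and 10 collagens had such values (Col16a1, Col9a3, Col5a1, Col4a4, Col8a1, Col23a1, Col26a1, Col6a2, Col6a5 and Col6a6), so that reads shared with other features may be split there.

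From these files, gene numbers were matched to symbols for 18179 of 18305 genes. Counts were rounded to whole numbers, and edgeR 4.0.16 (R 4.3.3, limma 3.58.1) was run with filterByExpr (minimum count 10, minimum total 15), which kept 14581 genes and removed 3724, TMM scaling, which moved library sizes by factors of 0.916 to 1.07, and a quasi-likelihood test with group as the only term, fitted to all 6 libraries. P-values were two-sided, adjusted by Benjamini-Hochberg over all tested genes and called at 0.05. CPM used the scaled library sizes; levels per kilobase used the length of 1 principal transcript per gene (GENCODE vM21, GRCm38), which is not the authors' build. Ratios against a group with 3 reads or fewer, but not 0, carry exact 95% intervals that cover counting error only. Against a group with 0 reads a bound is given, which takes 3 reads as that group's limit and leaves out the counting error of the other group. Promoter windows came from RefSeq.

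Fold changes are given for collagens called at 0.05, and collagens not called by their values per library; of the other lists, up to 3 called genes with the largest change per comparison could be named, plus Serpinh1, P4ha1, Plod2, Lox and Sox9. The members and lists were chosen with earlier results of these data known. Alternatives were DESeq2 1.42.0 (size factors and Wald test), limma voom with quantile normalization, other filters and scalings, a replicate block, assumed coefficients of variation, a test against 1.5-fold and leaving out each library. The procedure was also run on simulated counts with MEF levels in all groups, a single spread for all genes and changes in CiLC only. That setting is simpler than these data, so the run cannot speak for the calls made here. Tables and figures used Python 3.11.15, pandas 2.3.3, scipy 1.17.1 and matplotlib 3.10.9.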

Additional observations from a re-analysis of the deposited data

Results flagged for a closer look

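In 5 of 42 tested collagens (11.9%) the difference from MEF had opposite directions in CiLC and LC, both past the threshold, and CiLC and LC were called apart (edgeR quasi-likelihood test, adjusted over all genes, 2 libraries each). Among all tested genes 11.5% had opposite calls against MEF, so the share in collagens is near that of all genes. Col28a1 had a log2 fold change of 1.41 in CiLC over MEF and -3.32 in LC over MEF, with 4.73 in CiLC over LC (adjusted p = 1.49e-20). For Col4a1 the difference was -1.92 in CiLC over LC (adjusted p = 4.09e-20), from -0.17 in CiLC over MEF and 1.74 in LC over MEF. For Col16a1 it was -1.20 in CiLC over LC (adjusted p = 4.26e-16), from -0.14 in CiLC over MEF and 1.06 in LC over MEF. Col4a5 showed -0.74 in CiLC over LC (adjusted p = 3.29e-12), from -0.42 in CiLC over MEF and 0.32 in LC over MEF. Col5a3 gave 0.67 in CiLC over LC (adjusted p = 1.18e-09), from 0.40 in CiLC over MEF and -0.27 in LC over MEF. The small falls of Col4a1 and Col16a1 in CiLC over MEF lost their calls without single libraries, at adjusted p of 0.0524 without CiLC library 2 for Col4a1 and of 0.211, 0.0517 and 0.203 without CiLC library 1, CiLC library 2 and MEF library 2 for Col16a1. The rise of Col4a5 in LC over MEF was lost under quantile normalization (adjusted p = 0.0614, limma).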

How the results depend on the processing

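Of the 107 collagen calls in the 3 comparisons (edgeR quasi-likelihood test, adjusted p of at most 0.05), none was lost with DESeq2 size factors or the replicate block, 4 with the DESeq2 Wald test, 2 without a filter, 3 with library totals alone, 2 under quantile normalization and 2 to 5 when a library was left out. Under quantile normalization Col1a2 in CiLC over MEF reversed to 0.44 and Col1a1 in LC over MEF to 0.094. An assumed coefficient of variation of 0.4 lost 57 calls, one of 0.1 lost 10, and a test against 1.5-fold lost 26. For CiLC over MEF, 3808 genes higher became 2064 (0.1), 407 (0.4) and 1029 (1.5-fold), and 3721 lower became 2141, 268 and 1040; collagens went to 4 higher (0.4), and to 6 (0.4) and 11 (1.5-fold) lower. For LC over MEF, 5203 higher became 1450 (0.4) and 2509 (1.5-fold), and 5108 lower became 1058 and 2270, with collagens at 9 higher and 15 lower (0.4). For CiLC over LC, 5108 higher became 937 and 2080, and 5187 lower became 1314 and 2478, with collagens at 9 and 7 (0.4). With library totals alone the split of all genes, higher and lower, was 4762 and 3032 in CiLC over MEF, 4125 and 6527 in LC over MEF, and 7315 and 3713 in CiLC over LC, while the median of all genes moved by 0.067, -0.15 and 0.21. Leaving out a library gave 9 to 10 collagens higher and 18 to 21 lower in CiLC over MEF, 13 to 15 and 24 to 25 in LC over MEF, and 23 to 25 and 12 to 14 in CiLC over LC; for all genes it gave 3030 to 3763 and 3097 to 3680, 4752 to 5149 and 4659 to 5165, and 4594 to 5240 and 4739 to 5267. A group left with a single library was assumed to vary like the others. With the replicate block the collagens called were 9 and 21, 14 and 25, and 25 and 13, as without it; libraries of the same number deviated together little (r = 0.029, 0.050 and -0.066 across genes for CiLC with MEF, LC with MEF and CiLC with LC), so the numbers do not pair them. Library totals alone and library sizes without collagens were chosen after seeing the data; with the second of these Col17a1 was not tested. The causes of these changes were not tested. Genes under about 1 CPM rest on few reads, and with 2 libraries a group the spread is poorly known.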

Other observations

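Other genes of the collagen lists are given here by their values in CiLC and LC (edgeR quasi-likelihood test), with the MEF values after them. Tnmd, a tendon glycoprotein, had 10.1 and 10.6 CPM in CiLC and 0.174 and 0.235 CPM in LC (log2 fold change 5.62 ± 0.54 SE, adjusted p = 1.49e-14). Tll1, a procollagen C-proteinase, had 10.1 and 10.2 CPM in CiLC and 0.586 and 1.04 CPM in LC (log2 fold change 3.63 ± 0.27 SE, adjusted p = 1.23e-13). These were higher in CiLC than in LC, Tnmd with few reads in LC. MEF were higher still, with 14.9 and 12.1 CPM for Tnmd and 21.6 and 22.6 CPM for Tll1. Sox5, a cartilage regulator, had 2.88 and 3.29 CPM in CiLC and 45.8 and 44.4 CPM in LC (log2 fold change -3.86 ± 0.13 SE, adjusted p = 2.26e-19). Mmp8, a collagenase, had 0.865 and 0.659 CPM in CiLC and 11.5 and 10.8 CPM in LC (log2 fold change -3.86 ± 0.29 SE, adjusted p = 2.67e-13). Both were lower in CiLC than in LC. MEF had 3.19 and 2.73 CPM of Sox5, which was not called in CiLC over MEF, and 0.105 and 0 CPM of Mmp8. Itga2, a chain of a collagen-binding integrin, had 0.560 and 0.456 CPM in CiLC and 7.36 and 6.65 CPM in LC (log2 fold change -3.77 ± 0.34 SE, adjusted p = 1.59e-11). Pcolce2, an enhancer of procollagen C-proteinase, had 0.560 and 0.355 CPM in CiLC and 5.45 and 6.59 CPM in LC (log2 fold change -3.70 ± 0.37 SE, adjusted p = 1.27e-10). These too were lower in CiLC than in LC, with few reads in CiLC. MEF had 0.210 and 0.416 CPM of Itga2 and 0.105 and 0.156 CPM of Pcolce2.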
